A study of Macaca mulatta with 29 samples.

Results

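The expression of 11023 genes was compared between rhesus macaque embryonic stem cells kept for 4 weeks with tributyltin and cells kept with its solvent. These are all genes whose mean over the 5 tributyltin and 5 vehicle libraries reached 1 FPKM (fragments per kilobase of transcript, scaled to library size), of 16048 genes in the deposited table. The other 5025 genes fell below that level, and 768 of them were listed at 0 in all 10 libraries.

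Tributyltin is an organotin biocide, once widely used in antifouling paint. It binds the retinoid X receptor (RXR), a nuclear receptor that pairs with the liver X receptors, the peroxisome proliferator-activated receptors (PPARs) and the retinoic acid receptors, and it also binds PPARG. Those pairs control genes of cholesterol export, fatty acid handling and retinoic acid metabolism, and tributyltin is best known for promoting fat cell formation through them. A second pathway recurs in the values: hypoxia-inducible factor (HIF) is marked for degradation by oxygen-dependent prolyl hydroxylases, and when oxygen is scarce it switches on glycolytic enzymes, glucose transport and some of its own hydroxylases.

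All cells were of the line ORMES-6 (Oregon Rhesus Macaque Embryonic Stem-6), grown on mitotically inactivated mouse embryonic fibroblasts in 5% O2 and 5% CO2. The tributyltin group received tributyltin chloride at 25 nM, and the vehicle group received methanol, in which all compounds were dissolved. The other 4 compounds of the series, used below as a second reference, were bisphenol A at 10 nM, perfluorooctanoic acid (PFOA) at 100 nM, the phthalate DEHP at 5 uM (4 libraries) and atrazine at 30 uM. Each treatment was kept in 1 plate of 6 wells, and an effect of the plate cannot be told apart from that of the compound. The labels name no independent cultures, so p-values measure only the spread between libraries of the same plate, pooled over the plates in a fit, in 1 cell line. About 40 colonies per dish were carried over at each passage, and lysis followed the last feeding by about 24 h.

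Relative depth, read from the step that a single read is worth among low values, was 47.7 to 100% of the deepest library in the vehicle group and 53.1 to 72.1% with tributyltin, and absolute depth is unknown. The median gene had an SD of 0.176 (vehicle) and 0.180 (tributyltin) on the log2 scale, against 0.130 with DEHP, 0.138 with PFOA, 0.161 with atrazine and 0.197 with bisphenol A. A test that shares 1 spread over all 6 groups can therefore be looser for tributyltin against vehicle than a test on these 10 libraries alone, and both are given below. The 9 markers of pluripotent cells summed to 2229 to 2677 FPKM in vehicle libraries and to 2383 to 2617 FPKM with tributyltin, and 0 of the 9 passed the test. POU5F1, the central pluripotency factor, had 523 ± 103 FPKM in vehicle and 510.5 ± 88.8 FPKM with tributyltin (SD, n = 5 each), NANOG had 132 ± 8.37 and 127 ± 9.23 FPKM, and SOX2 had 124 ± 14.4 and 123 ± 17.2 FPKM. Fibroblast and feeder markers summed to 226 to 280 FPKM in vehicle and 218 to 282 FPKM with tributyltin over 14 genes. Much of the sum came from TAGLN (means 111 and 105 FPKM) and COL1A1 (47.1 and 57.5 FPKM). DCN and LUM were at 0 in all 10 libraries, and COL3A1 had means of 0.0654 and 0.0898 FPKM. The sum is therefore no measure of feeder content, and which cells gave these reads was not tested. The marker sums of mesoderm and endoderm (13.3 to 19.0 against 13.9 to 16.6 FPKM), neuroectoderm (114 to 155 against 103 to 119 FPKM) and trophectoderm (3.50 to 5.77 against 2.12 to 4.94 FPKM) overlapped between the groups, and none of their tested genes passed.

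**Figure D1:**
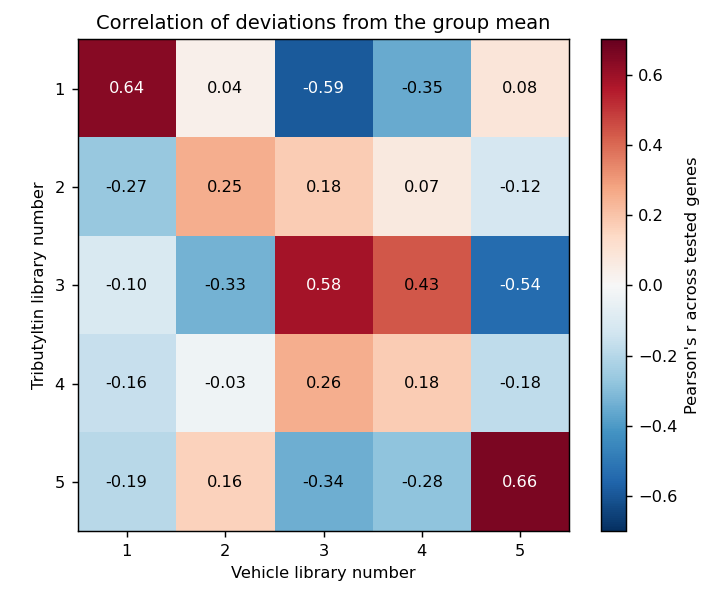
Pearson's r, across the 11023 tested genes, between the deviation of each tributyltin library (rows) and of each vehicle library (columns) from its own group mean on the log2 scale. The same-numbered pairs on the diagonal lie between 0.18 and 0.66, while the other pairs run from -0.59 to 0.43.

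Same-numbered libraries of the 2 groups tended to deviate together, as the grid of correlations shows, so each result was also computed with the replicate number as a block. Pair 4 was weakest, at 0.18. Tributyltin library 4 correlated more with vehicle library 3 (0.26), and vehicle library 4 more with tributyltin library 3 (0.43).

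Most changes were decreases. With limma over all 29 libraries, 22 genes were higher (0.200% of those tested) and 116 were lower (1.05%) with tributyltin, at a Benjamini-Hochberg adjusted p under 0.05, together 1.25%. In bulk RNA, fewer cells that express a gene and less RNA per cell cannot be told apart. Median-of-ratios scaling gave 31 higher and 86 lower genes, a less lopsided split. With the 10 libraries alone, 10 genes were higher (0.0907%) and 34 lower (0.308%), and 42 of these 44 (0.399%) were among the 138 called with all libraries. Adding the replicate block to the 10 libraries gave 87 higher (0.789%) and 186 lower genes (1.69%, together 2.48%), and 123 of the 138 remained called. With all libraries and the block there were 118 higher (1.07%) and 303 lower genes (2.75%, together 3.82%), all 138 among them. Leaving out vehicle library 2, vehicle library 3 or tributyltin library 1 lowered the 138 to 71, 83 and 90. The 2 groups did not overlap for 108 of the 138 called genes, 19 higher and 89 lower, against 69 higher and 187 lower genes among all tested (0.626% and 1.70%, together 2.32%). In 136 of the 138, all 5 same-numbered pairs went the same way, with PTCH1 and PPP1R3C as the other 2. Calling these genes on the same libraries favours both this count and the one without overlap. Differences were mostly small: 1 gene rose and 4 fell by more than 1 on the log2(FPKM + 1) scale, and 66 of the 116 lower genes fell by less than 0.5. Over all tested genes the median difference was -0.02.

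**Figure D2:**
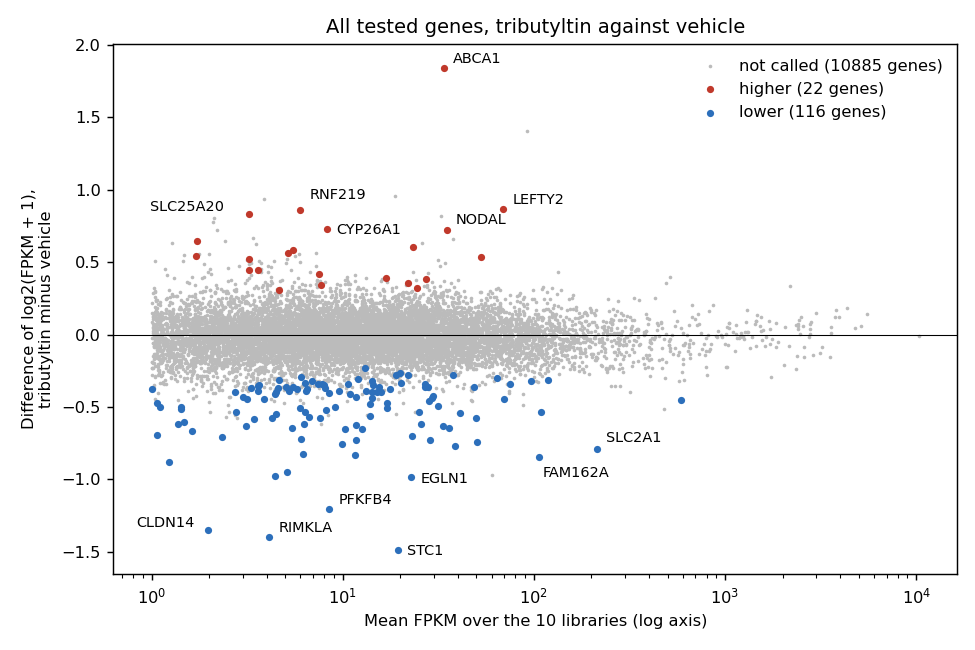
Difference of mean log2(FPKM + 1), tributyltin minus vehicle, against mean FPKM over the 10 libraries (log axis) for all 11023 tested genes, with the 22 higher genes in red, the 116 lower genes in blue and the rest in grey. ABCA1 stands alone at the top at 1.84, and STC1, RIMKLA, CLDN14 and PFKFB4 lie lowest, between -1.49 and -1.21.

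The genes of the nuclear receptors come first. Of 18 tested genes for RXR, PPAR and their partner receptors, 1 rose (RARB) and 0 fell, against 0.200% of all genes higher. The median log2 difference was -0.05. The receptor gene RXRB had 7.34 ± 0.619 FPKM in vehicle and 7.01 ± 1.02 FPKM with tributyltin, and PPARD had 6.31 ± 0.878 and 5.42 ± 0.483 FPKM, with adjusted p of 0.904 and 0.444. PPARG was below the filter, at means of 0.0579 and 0.101 FPKM, as was the aromatase gene CYP19A1, at 0.0125 and 0.00809 FPKM. RXRA was not analysed here.

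Among 15 tested targets of the liver X receptors, 1 rose, against 0.200% of all genes, and 0 fell, with a median of -0.01. That gene was ABCA1 (human Entrez 19), the membrane transporter that hands cholesterol to lipoproteins. It stood at 13.6, 10.9, 17.2, 15.9 and 14.3 FPKM in vehicle libraries 1 to 5 and at 51.7, 51.9, 58.4, 49.6 and 56.2 FPKM in tributyltin libraries 1 to 5. Every tributyltin library lay far above the highest vehicle library, a log2 difference of 1.84 (SE 0.16, adjusted p = 5.84e-09, and 1.87e-06 with the 10 libraries alone). The lipid regulator SREBF1, another target of these receptors, had 3.64 ± 0.479 and 4.55 ± 0.484 FPKM (adjusted p = 0.343).

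Among 27 PPAR targets 1 rose and 0 fell (median 0.01), against 0.200% of all genes higher. SLC25A20 (788), the carrier that brings fatty acylcarnitines into mitochondria, stood at 2.1, 1.67, 1.91, 2.76 and 1.89 FPKM in the vehicle libraries and at 4.61, 4.69, 4.17, 4.16 and 4.45 FPKM with tributyltin. The groups were apart, with a log2 difference of 0.83 (SE 0.12, adjusted p = 8.75e-05, and 0.00156 with the 10 libraries alone). Other textbook PPAR targets gave values close together: PDK4, a brake on pyruvate oxidation, had 3.09 ± 0.852 and 3.18 ± 0.598 FPKM, and the lipid droplet gene PLIN2 had 1.52 ± 0.521 and 1.61 ± 0.429 FPKM, with adjusted p of 0.97 for both. Of 19 genes of fatty acid synthesis and activation, 0 fell and 1 rose, against 0.200% of all genes higher (median -0.01). It was ACSL3 (2181), which activates long-chain fatty acids and works in lipid droplet formation, at 44.8, 45.3, 44.2, 41.0 and 38.5 FPKM in vehicle and 59.9, 66.9, 67.8, 66.5 and 52.4 FPKM with tributyltin. The lowest tributyltin library exceeded the highest vehicle library (log2 difference 0.54, SE 0.10, adjusted p = 0.00139, and 0.0205 with the 10 libraries alone). Of 8 tested adipogenic regulators and markers, 0 passed. KLF15, at 3.00 ± 0.733 and 4.45 ± 0.741 FPKM, passed only with the block on the 10 libraries (adjusted p = 0.252, and 0.012 with the block). Its means were 4.29 FPKM with atrazine, 4.37 with DEHP, 4.55 with PFOA and 3.47 with bisphenol A.

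**Figure D3:**
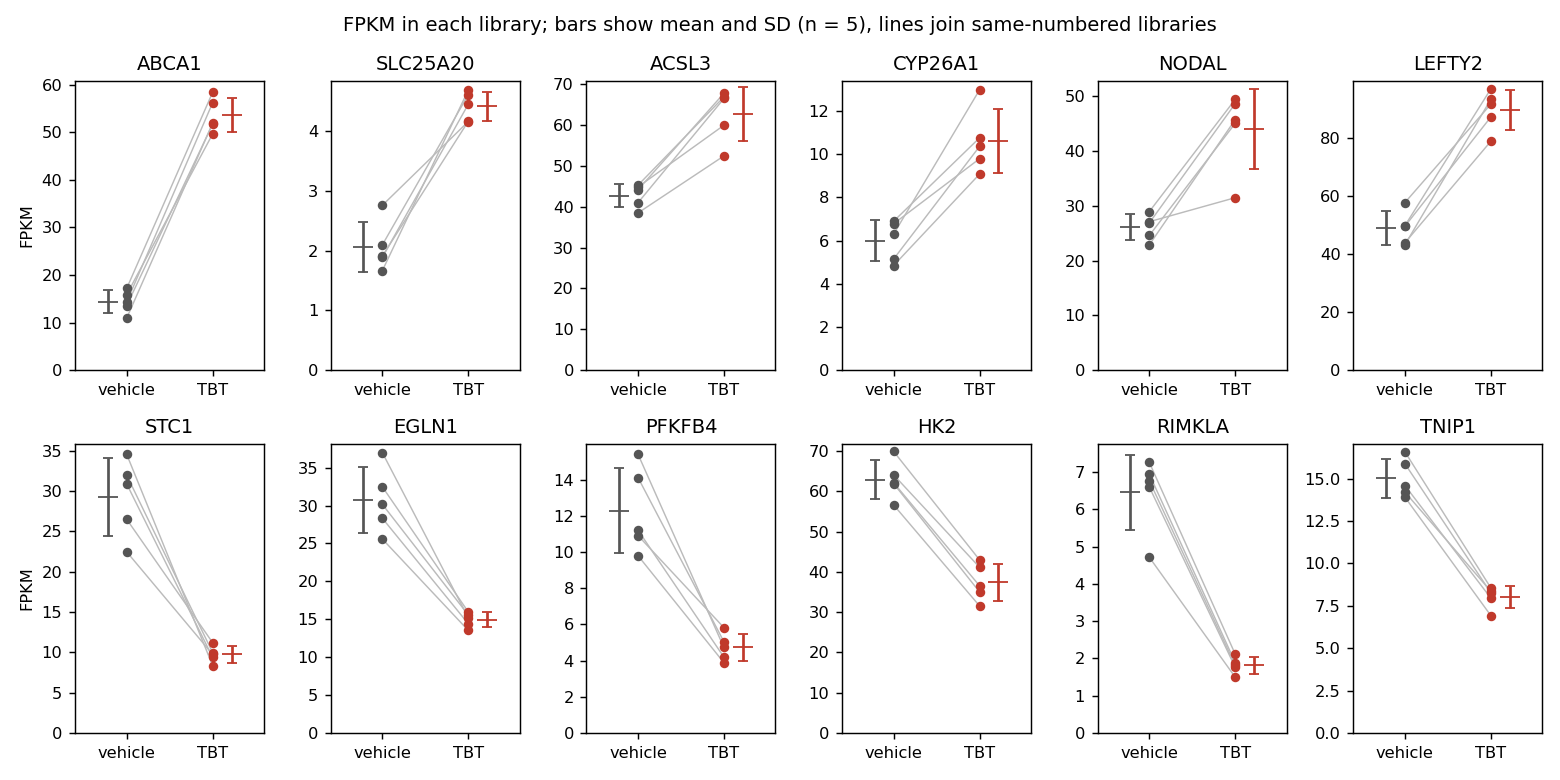
FPKM of 12 genes in each of the 5 vehicle (grey) and 5 tributyltin (TBT, red) libraries, with mean and SD beside the points and lines joining libraries of the same number; each vertical axis starts at 0. The 2 groups do not overlap for any of the 12 genes, 6 higher and 6 lower, and the fifth NODAL pair has the flattest line in its panel.

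Retinoic acid, the signal read by the retinoic acid receptors, patterns the early embryo, and cells limit it by degrading it. Of 14 tested genes that handle or respond to it, 3 rose and 0 fell, against 0.200% of all genes higher, with a median of 0.10, against -0.02 over all genes. With the 10 libraries alone 1 rose, against 0.0907% of all genes. CYP26A1 (1592), which breaks retinoic acid down and is itself switched on by it, stood at 5.15, 6.78, 6.90, 4.85 and 6.30 FPKM in vehicle and 10.4, 9.79, 10.8, 9.08 and 13.0 FPKM with tributyltin, so the groups did not overlap (log2 difference 0.73, adjusted p = 7.09e-05, and 0.0114 with the 10 libraries alone). RARB (5915), a receptor gene that is also a classical retinoic acid target, went from 0.878, 1.15, 1.6, 1.44 and 0.672 FPKM to 2.66, 1.98, 2.47, 1.96 and 2.56 FPKM. All 5 tributyltin libraries were above all vehicle libraries, with a log2 difference of 0.64 (adjusted p = 0.00275, but 0.0533 with the 10 libraries alone and 0.0215 with the block). RDH11, a retinal reductase, rose from 23.5 ± 2.67 to 30.8 ± 2.38 FPKM (adjusted p = 0.0217, but 0.152 with the 10 libraries alone), and lost its call when any 1 of 5 libraries was left out. DHRS3, which turns retinal back into retinol, had 5.49 ± 0.281 and 7.90 ± 1.78 FPKM (adjusted p = 0.19), and the receptor RARG had 3.31 ± 0.441 and 4.34 ± 1.03 FPKM (adjusted p = 0.332).

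NODAL is the TGF-beta family ligand that keeps primate pluripotent cells undifferentiated and later induces mesoderm and endoderm, and LEFTY1 and LEFTY2 are its secreted inhibitors and targets. Of 32 tested genes of NODAL and TGF-beta signalling, 2 rose and 0 fell (median -0.03), against 0.200% of all genes higher. NODAL (4838) stood at 24.6, 26.9, 22.9, 28.9 and 27.1 FPKM in vehicle and 45.1, 48.7, 45.7, 49.4 and 31.5 FPKM with tributyltin, with library 5 of the tributyltin group well below its 4 companions and still above every vehicle library (log2 difference 0.72, SE 0.11, adjusted p = 0.00014, and 0.0159 with the 10 libraries alone). LEFTY2 (7044) stood at 43.2, 57.7, 49.6, 49.8 and 43.9 FPKM in vehicle and 93.3, 91.7, 87.2, 96.9 and 78.9 FPKM with tributyltin, again without overlap (log2 difference 0.87, SE 0.14, adjusted p = 0.000276). Its near-identical neighbour LEFTY1 had 8.21, 15.4, 13.4, 13.9 and 11.8 FPKM in vehicle and 26.5, 25.5, 22.9, 32.2 and 18.6 FPKM with tributyltin, just outside the threshold (adjusted p = 0.055). It passed with the 10 libraries alone (adjusted p = 0.017), where 3 genes of the list were higher, against 0.0907% of all genes. With the block it also passed (adjusted p = 0.00176), and 4 genes of the list were higher, against 0.789% of all genes. Reads may be split between these 2 copies, so neither value is certain by itself. BMP4, a ligand of the opposing branch of the family, had 25.6 ± 4.11 and 37.2 ± 7.00 FPKM. It missed the threshold and passed with the block (adjusted p = 0.0715, and 0.00256 with the block). Of the 10 tested mesoderm and endoderm genes 0 passed: CER1, a secreted NODAL inhibitor, ranged from 0.64 to 1.70 FPKM in vehicle and from 1.01 to 5.04 FPKM with tributyltin (adjusted p = 0.268), and the VEGF receptor KDR had 23.4 ± 3.20 and 17.7 ± 1.23 FPKM (adjusted p = 0.0744, and 0.0146 with the block and 0.0158 without vehicle library 1).

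Genes of the oxygen response were among the decreases. Of 50 tested genes of the HIF pathway and its targets outside glycolysis, 21 fell and 0 rose, against 1.05% of all genes lower, and 43 of the 50 had a negative difference, as did 54.8% of all tested genes. The median was -0.39, against -0.02 over all genes. With the 10 libraries alone 11 fell, against 0.308% of all genes, and 28 fell when the block was added to these, against 1.69%. Of 26 tested glycolysis genes, 5 fell and 0 rose, against 1.05% of all genes lower, with a median of -0.25 and 25 negative differences. With the 10 libraries alone 3 fell (0.308% of all genes), and 7 when the block was added to these (1.69%). With the block over all libraries 10 fell (2.75%). The 2 lists together held 26 of the 116 lower genes, or 22.4%, while 84 lower genes stood in no list. Earlier results of these data were known when the lists were drawn up, and a count over them is a description.

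STC1 (6781), a secreted glycoprotein hormone, fell the most on the log2(FPKM + 1) scale. Its mean FPKM fell 3.01-fold, against 4.91-fold for CLDN14, 3.56-fold for RIMKLA and 3.41-fold for NRN1. It stood at 31.9, 34.5, 30.9, 26.5 and 22.4 FPKM in vehicle and 9.96, 8.36, 9.36, 11.2 and 9.74 FPKM with tributyltin, and the highest tributyltin library lay far below the lowest vehicle library (log2 difference -1.49, SE 0.11, adjusted p = 2.78e-10, and 2.85e-05 with the 10 libraries alone). EGLN1 (54583), the prolyl hydroxylase that marks HIF for degradation, went from 28.3, 32.5, 37.0, 30.2 and 25.6 FPKM to 14.4, 16.0, 15.2, 15.6 and 13.5 FPKM. Its tributyltin values were tightly grouped below all vehicle values (log2 difference -0.98, SE 0.10, adjusted p = 1.22e-07). FAM162A, a mitochondrial protein induced by HIF, went from 140.4, 169, 119, 119 and 135 to 91.6, 71.1, 68.2, 77.3 and 69.0 FPKM without overlap (log2 difference -0.85, adjusted p = 1.31e-05).

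Among glycolysis genes, PFKFB4 (5210), which sets the level of an activator of phosphofructokinase, fell from 14.1, 15.4, 11.2, 10.9 and 9.79 FPKM to 5.04, 4.72, 4.18, 5.82 and 3.88 FPKM (log2 difference -1.21, adjusted p = 5.33e-09). The hexokinase HK2 (3099), which traps glucose in the cell, fell from 56.6, 69.9, 61.9, 62.1 and 64.1 FPKM to 31.5, 43.0, 35, 36.5 and 41.1 FPKM (log2 difference -0.74, adjusted p = 4.91e-07). For SLC2A1 (6513), the main glucose transporter of many dividing cells, the values were 319, 264, 244, 287 and 243 FPKM in vehicle and 186, 139.7, 134, 143 and 182 FPKM with tributyltin (log2 difference -0.79, adjusted p = 7.09e-05). None of these 3 overlapped between the groups, and all 3 passed with the 10 libraries alone. PDK3, a kinase that slows pyruvate oxidation, fell by 0.43 and HK1 fell by 0.36, but neither passed with the 10 libraries alone (adjusted p = 0.0928 and 0.286). The abundant enzymes of the lower pathway did not pass: LDHA, which makes lactate, had 636 ± 98.2 and 509.8 ± 80.8 FPKM (adjusted p = 0.228, and 0.0494 with the block), and PGK1 had 597 ± 101 and 545 ± 52.7 FPKM (adjusted p = 0.882).

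Further HIF list members fell in several roles. NRN1, a neurite growth factor, fell from 1.90 ± 0.565 to 0.556 ± 0.114 FPKM, and RIOK3, an atypical kinase, from 36.0 ± 2.88 to 21.3 ± 1.26 FPKM (adjusted p = 1.14e-08). The circadian repressors BHLHE40 and BHLHE41 fell by 0.72 and 0.69, the adenylate kinase AK4 by 0.54, and the mitophagy receptor BNIP3 from 678 ± 44.2 to 494 ± 27.6 FPKM. The collagen prolyl hydroxylases P4HA1 and P4HA2 fell by 0.54 and 0.56, and neither passed with the 10 libraries alone (adjusted p = 0.121 and 0.0611). MGARP, a mitochondrial protein, ranged from 4.21 to 8.83 FPKM in vehicle and from 1.67 to 4.30 FPKM with tributyltin, so its groups overlapped slightly (log2 difference -0.97, adjusted p = 0.00511, but 0.108 with the 10 libraries alone).

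Not every HIF gene went down. HIF1A, the oxygen-regulated subunit itself, had 111 ± 17.3 FPKM in vehicle and 139 ± 21.4 FPKM with tributyltin (adjusted p = 0.193). The angiogenic factor VEGFA had 16.9 ± 1.19 and 15.7 ± 2.17 FPKM (adjusted p = 0.799), and the carbonic anhydrase CA9 had 4.15 ± 1.04 and 4.34 ± 1.59 FPKM (adjusted p = 0.985). The peptide hormone ADM and the mTOR inhibitor DDIT4 missed the threshold and passed with the block. ADM had 3.13 ± 0.879 and 1.77 ± 0.460 FPKM (adjusted p = 0.178, and 0.0279 with the block), and DDIT4 had 43.2 ± 9.03 and 31.1 ± 7.75 FPKM (adjusted p = 0.313, and 0.0163 with the block).

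**Figure D4:**
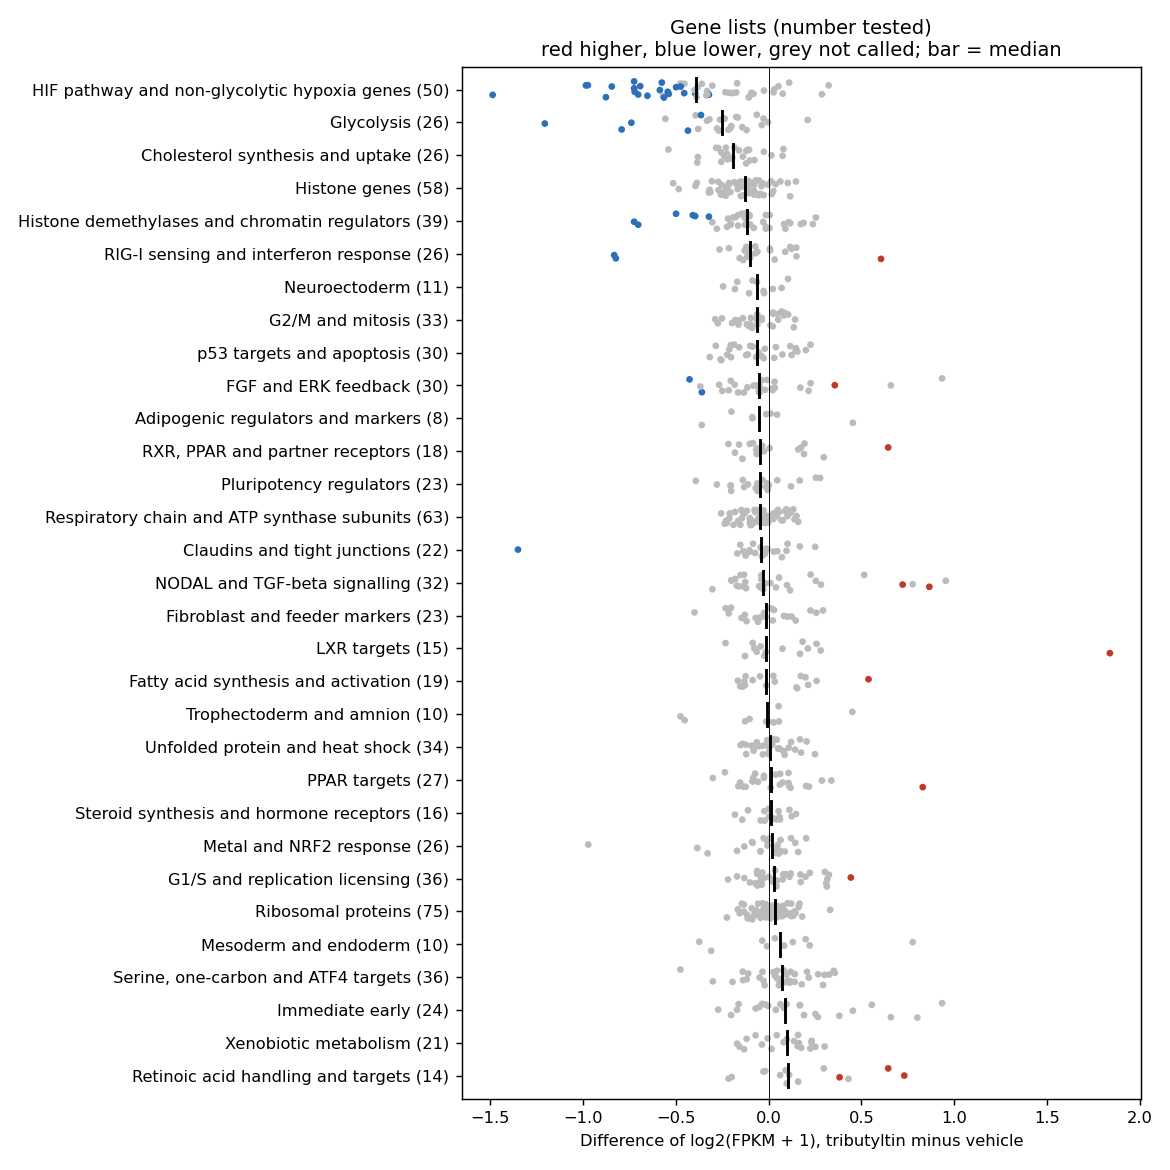
Difference of mean log2(FPKM + 1), tributyltin minus vehicle, for each tested gene of the 31 lists (number tested in brackets), ordered by median (black bar); red genes are higher, blue lower and grey not called. The HIF list lies furthest to the left with a median of -0.39, and single red points such as ABCA1 stand far from lists whose medians are near 0.

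Several genes in the HIF list encode Jumonji histone demethylases, enzymes that need oxygen. Of 39 tested histone demethylases and other chromatin regulators, 6 fell and 0 rose, against 1.05% of all genes lower, with a median of -0.12; 2 fell with the 10 libraries alone, against 0.308%. KDM3A, which removes methyl groups from lysine 9 of histone H3, went from 22.1, 33.8, 34.4, 26.6 and 27.3 FPKM to 13.6, 18.8, 18.1, 17.8 and 17.9 FPKM, without overlap (log2 difference -0.70, adjusted p = 0.000142, and 0.0233 with the 10 libraries alone). SAP30, a subunit of the SIN3 deacetylase complex, went from 15.7, 16.7, 13.3, 12.4 and 15.7 to 8.39, 10.4, 7.74, 7.84 and 8.36 FPKM (log2 difference -0.72, adjusted p = 0.000238). The demethylase genes KDM4B (-0.50), JHDM1D (-0.41), KDM4C (-0.40) and KDM5B (-0.32) fell by smaller log2 differences, and none of these 4 passed with the 10 libraries alone. Without vehicle library 2 the count of lower genes in the list was 3, with JHDM1D among those lost (adjusted p = 0.0572). All of the 6 but JHDM1D are also members of the HIF list.

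Other large decreases lay outside the HIF, glycolysis and chromatin lists. RIMKLA (284716), the enzyme that joins N-acetylaspartate to glutamate, stood at 6.60, 6.77, 7.26, 6.94 and 4.71 FPKM in vehicle and 1.76, 1.82, 2.11, 1.89 and 1.49 FPKM with tributyltin, with vehicle library 5 the lowest of its group and still above all tributyltin libraries (log2 difference -1.40, SE 0.10, adjusted p = 2.78e-10). CLDN14 (23562), a tight junction claudin, was the only 1 of 22 tested claudin and junction genes to pass, against 1.25% of all genes. It fell from 4.50, 3.38, 2.87, 3.43 and 2.24 FPKM to 0.922, 0.688, 0.872, 0.411 and 0.446 FPKM (log2 difference -1.35, adjusted p = 1.77e-05). HERC3, a ubiquitin ligase, fell from 7.05 ± 1.54 to 3.12 ± 0.401 FPKM. RAB2B, a small GTPase of the secretory pathway, fell from 49.2 ± 7.34 to 28.5 ± 4.05 FPKM (adjusted p = 2.81e-05). These 4 genes passed with the 10 libraries alone. ANKRD1, a muscle ankyrin protein and YAP target, fell from 12.8 ± 3.98 to 7.05 ± 1.49 FPKM close to the threshold (adjusted p = 0.048, 0.0975 with the 10 libraries alone and 0.00367 with the block), and the call was lost when any 1 of 8 libraries was left out.

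The cytosolic RNA sensor RIG-I (DDX58) sets off the interferon response to viral RNA. Of 26 tested genes of this response, 2 fell and 1 rose (median -0.10), against 1.05% of all genes lower and 0.200% higher. DDX58 (23586) went from 9.53, 9.37, 9.65, 6.48 and 6.24 FPKM to 4.25, 4.17, 4.09, 4.43 and 3.84 FPKM (log2 difference -0.82, adjusted p = 1.37e-05), and TNIP1 (10318), an inhibitor of NF-kappaB signalling, from 14.2, 16.6, 13.9, 14.6 and 15.9 FPKM to 8.36, 8.55, 6.92, 7.95 and 8.26 FPKM (log2 difference -0.83, adjusted p = 2.6e-07). Both groups of values were fully apart. TRIM22, an antiviral ubiquitin ligase, moved the other way, from 16.9, 18.8, 19.2, 19.7 and 16.0 FPKM to 24.0, 32.6, 37.2, 26.2 and 22.6 FPKM (adjusted p = 0.00104, but 0.0695 with the 10 libraries alone). MYD88, the adaptor of toll-like receptors, was outside the list and rose from 6.71 ± 0.881 to 8.73 ± 0.560 FPKM, though not with the block (adjusted p = 0.0555).

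FGF signalling through ERK sustains primate pluripotent cells and induces its own inhibitors. Of 30 tested genes, 1 rose and 2 fell (median -0.05), against 0.200% of all genes higher and 1.05% lower. SPRED2, an inhibitor of the pathway, rose from 19.2 ± 2.25 to 24.8 ± 2.55 FPKM, while the ERK-responsive transcription factor ETV5 fell from 34.0 ± 4.27 to 25.0 ± 2.31 FPKM and the feedback inhibitor SPRY4 from 30.3 ± 1.41 to 23.4 ± 1.70 FPKM. The 3 passed with the block but not with the 10 libraries alone (adjusted p = 0.232, 0.111 and 0.0844). Each also lost its call when certain single libraries were left out, SPRED2 without vehicle library 2 (adjusted p = 0.0573), ETV5 without tributyltin library 1 (adjusted p = 0.0569) or vehicle library 5 (adjusted p = 0.0523), and SPRY4 with any 1 of 7 libraries left out. Immediate early genes, which growth factors and handling switch on within minutes, had 0 of 24 passing. With the block 5 were higher (FOS, FOSB, EGR1, DUSP1 and DUSP2), against 0.789% of all genes. FOS had 2.26 ± 0.614 and 5.44 ± 2.25 FPKM (adjusted p = 0.212, and 0.00406 with the block) and EGR1 had 29.2 ± 9.39 and 46.0 ± 11.8 FPKM (adjusted p = 0.407, and 0.00177 with the block). FOS had means of 6.19 FPKM with bisphenol A, 6.02 with atrazine, 5.85 with PFOA and 3.53 with DEHP. Against these compounds FOS with tributyltin differed by 0.07 (adjusted p = 0.948) and EGR1 by 0.06 (adjusted p = 0.952). Among 36 genes of G1/S and replication licensing 1 rose, against 0.200% of all genes. It was the transcription factor E2F1, from 2.92 ± 0.530 to 4.32 ± 0.564 FPKM (adjusted p = 0.0407, but 0.181 with the 10 libraries alone). The call was lost when any 1 of 7 libraries was left out.

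Metallothioneins bind metals and are the classical metal-induced genes, and tributyltin is an organometal. MT2A stood at 126, 82.3, 44.6, 71.0 and 82.9 FPKM in vehicle and at 52.2, 34.6, 36.2, 41.9 and 32.2 FPKM with tributyltin. All same-numbered pairs went down and vehicle library 3 overlapped the tributyltin range, and the gene missed the threshold (log2 difference -0.97, adjusted p = 0.0567), passing with the block (adjusted p = 0.00215) or without vehicle library 3 (adjusted p = 0.0184). In the list of 26 metal and oxidative stress genes 0 passed, with a median of 0.02, and 2 fell with the block, against 1.69% of all genes. The other was the transferrin receptor TFRC (53.4 ± 8.28 and 40.7 ± 6.47 FPKM, adjusted p = 0.172, and 0.0088 with the block). HMOX1 was not analysed here.

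Cholesterol synthesis and uptake genes lay on the low side without passing: 0 of 26 were called, 23 had a negative difference, against 54.8% of all tested genes, and the median was -0.19. With the block 3 fell, against 1.69% of all genes, among them HMGCS1 and CYP51A1. HMGCS1, the synthase at the head of the pathway, had 47.4 ± 11.1 and 32.9 ± 10.8 FPKM (adjusted p = 0.325, and 0.00176 with the block), and the lanosterol demethylase CYP51A1 had 23.6 ± 3.28 and 17.9 ± 2.35 FPKM (adjusted p = 0.0744, and 0.00877 with the block). The medians of this list against the same vehicle libraries were -0.18 for atrazine, -0.16 for DEHP, -0.15 for PFOA and -0.02 for bisphenol A. Histone genes had 0 of 58 passing, and 2 were lower with the block, against 1.69% of all genes. They had 50 negative differences and a median of -0.13, against -0.28 with atrazine, -0.24 with bisphenol A, -0.14 with DEHP and -0.09 with PFOA. No gene passed among 23 pluripotency regulators, 63 respiratory chain and ATP synthase subunits, 34 genes of the unfolded protein and heat shock responses, 36 of serine, one-carbon and ATF4 metabolism, 30 p53 targets and apoptosis genes, 16 steroid genes, 21 xenobiotic genes, 33 of G2/M, 75 ribosomal proteins, 11 neuroectoderm, 10 trophectoderm or 23 fibroblast and feeder genes. Their medians lay between -0.06 and 0.10. The blocked fit called 3 higher and 1 lower in the ATF4 list, 1 lower pluripotency regulator and 1 lower fibroblast gene. Over all genes it called 0.789% higher and 1.69% lower.

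The remaining higher genes were few. RNF219, a ring finger protein, stood at 4.53, 2.44, 4.57, 3.52 and 5.04 FPKM in vehicle and 7.35, 8.64, 7.82, 7.12 and 8.79 FPKM with tributyltin (log2 difference 0.86, adjusted p = 0.0103, and 0.0132 with the 10 libraries alone, but 0.0603 without vehicle library 2). LEPREL1, a collagen prolyl 3-hydroxylase, rose from 4.19 ± 0.385 to 6.77 ± 0.756 FPKM and also passed with the 10 libraries alone. FAM78B rose by 0.56, ARHGAP36, an activator of hedgehog signalling, by 0.54, the guidance factor SEMA3C by 0.52 and PSEN2, a gamma-secretase subunit, by 0.44, and these 4 did not pass with the 10 libraries alone. FAM78B was lost when any 1 of 5 libraries was left out, and PSEN2 when any 1 of 8 was. TSPAN18, TSPYL2, CACHD1 and LRP4 complete the 22; these and the genes of the next paragraph were chosen after their values were seen. LRP4, a receptor for agrin, had 4.03 ± 0.421 and 5.23 ± 0.670 FPKM and was lost with the block (adjusted p = 0.0535).

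Of the 138 called genes 95 stood in no list, 84 of them lower. Some act in metabolism: NAMPT, the rate-limiting enzyme of NAD salvage, fell from 44.1 ± 5.02 to 28.0 ± 4.29 FPKM, the glycogen synthase GYS1 from 10.9 ± 0.585 to 8.15 ± 1.08 FPKM, and the carbonic anhydrase CA3 from 12.7 ± 2.08 to 7.73 ± 1.38 FPKM. Others shape the cell surface and matrix: the fibrillar collagen COL11A1 fell from 40.7 ± 5.04 to 26.0 ± 3.63 FPKM, the metalloproteinase ADAMTS20 from 3.13 ± 0.422 to 1.52 ± 0.242 FPKM, and the adhesion molecules L1CAM and CHL1 from 19.9 ± 0.677 to 14.1 ± 1.21 and from 8.05 ± 1.06 to 5.21 ± 1.45 FPKM. The hedgehog receptor PTCH1 fell from 9.25 ± 1.17 to 6.92 ± 0.879 FPKM, with overlap, and was lost with the block (adjusted p = 0.0622). Signalling genes included the kinase MAP3K1 (30.0 ± 4.07 to 20.3 ± 1.18 FPKM), the G protein subunit GNAO1 (54.6 ± 4.42 to 42.2 ± 3.62 FPKM) and FGF11 (7.80 ± 1.42 to 4.70 ± 0.675 FPKM). The RNA demethylase ALKBH5 fell from 36.9 ± 3.61 to 26.2 ± 5.35 FPKM. At the edge of the threshold, ANKRD1 and BEND5 were just inside, and LONP2 (adjusted p = 0.0506) and POLR2C (adjusted p = 0.0511) just outside.

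The other compounds of the series gave a second reference, whose differences use no vehicle library but the same tributyltin libraries. The vehicle libraries still entered the filter and, in the fit over all 29 libraries, the shared spread. Against the mean of bisphenol A, DEHP, PFOA and atrazine, 78 genes were higher (0.708%) and 136 lower (1.23%) with tributyltin, together 1.94%. With the block and without the vehicle libraries these counts were 251 (2.28%) and 269 (2.44%), together 4.72%. Leaving out a single tributyltin library gave 75 to 255 genes, the lowest without library 5. ABCA1 differed by 1.83 (adjusted p = 9.1e-11), with group means of 17.0 FPKM with atrazine, 16.1 with PFOA, 13.9 with bisphenol A and 11.6 with DEHP. RNF219, SLC25A20, LEFTY2, RARB, ACSL3, CYP26A1 and FAM78B followed, with log2 differences from 0.90 to 0.66. SPRED2 was higher than with the other compounds by 0.57 (adjusted p = 6.91e-07). All 22 genes higher than in vehicle had their highest group mean with tributyltin, against 19.8% of all tested genes; the choice of these genes favours that order. Of the 14 retinoic acid genes 4 were higher and 0 lower in this comparison, against 0.708% of all genes higher. Of the 32 genes of the NODAL list 2 were higher and 0 lower.

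Genes of the oxygen response were graded over the groups, as the plot by group shows, but this order was not particular to them. RIMKLA, which stood in no list, had means of 6.46 FPKM in vehicle, 5.24 with bisphenol A and 4.48 with DEHP. Its means were 3.21 FPKM with PFOA, 2.78 with atrazine and 1.81 with tributyltin. STC1 had means of 29.3 FPKM in vehicle, 26.5 with bisphenol A, 18 with DEHP, 15.7 with atrazine, 15.2 with PFOA and 9.72 with tributyltin. The last stood below the other compounds by -0.85 on the log2 scale (adjusted p = 4.15e-07). For PFKFB4 the same contrast was -0.84 (adjusted p = 1.82e-07), for EGLN1 -0.45 (adjusted p = 0.00125), for SLC2A1 -0.36 (adjusted p = 0.0267) and for HK2 -0.30 (adjusted p = 0.011). Over the HIF list, 15 of 50 genes were lower than with the other compounds and 0 higher, against 1.23% of all genes lower, with a median of -0.24. Glycolysis had 4 of 26 lower. Measured against the vehicle libraries that all comparisons share, the median difference of the HIF list was -0.39 with tributyltin, -0.22 with PFOA, -0.21 with atrazine, -0.12 with DEHP and -0.04 with bisphenol A, so vehicle stood at the upper end. Of the 116 lower genes, 81 had their highest group mean in vehicle, against 18.9% of all tested genes. For 109 the lowest mean was with tributyltin, against 22.9%. All 4 other compounds lay below vehicle and above tributyltin for 78 of the 116, against 519 of all 11023 tested genes. Choosing genes on vehicle and tributyltin favours each of these orders. AK4, SAP30 and KDM3A did not pass against the other compounds (adjusted p = 0.4, 0.176 and 0.0642). AK4 had means of 129 FPKM in vehicle, 88.6 with tributyltin and 89.1 to 111 with the others.

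**Figure D5:**
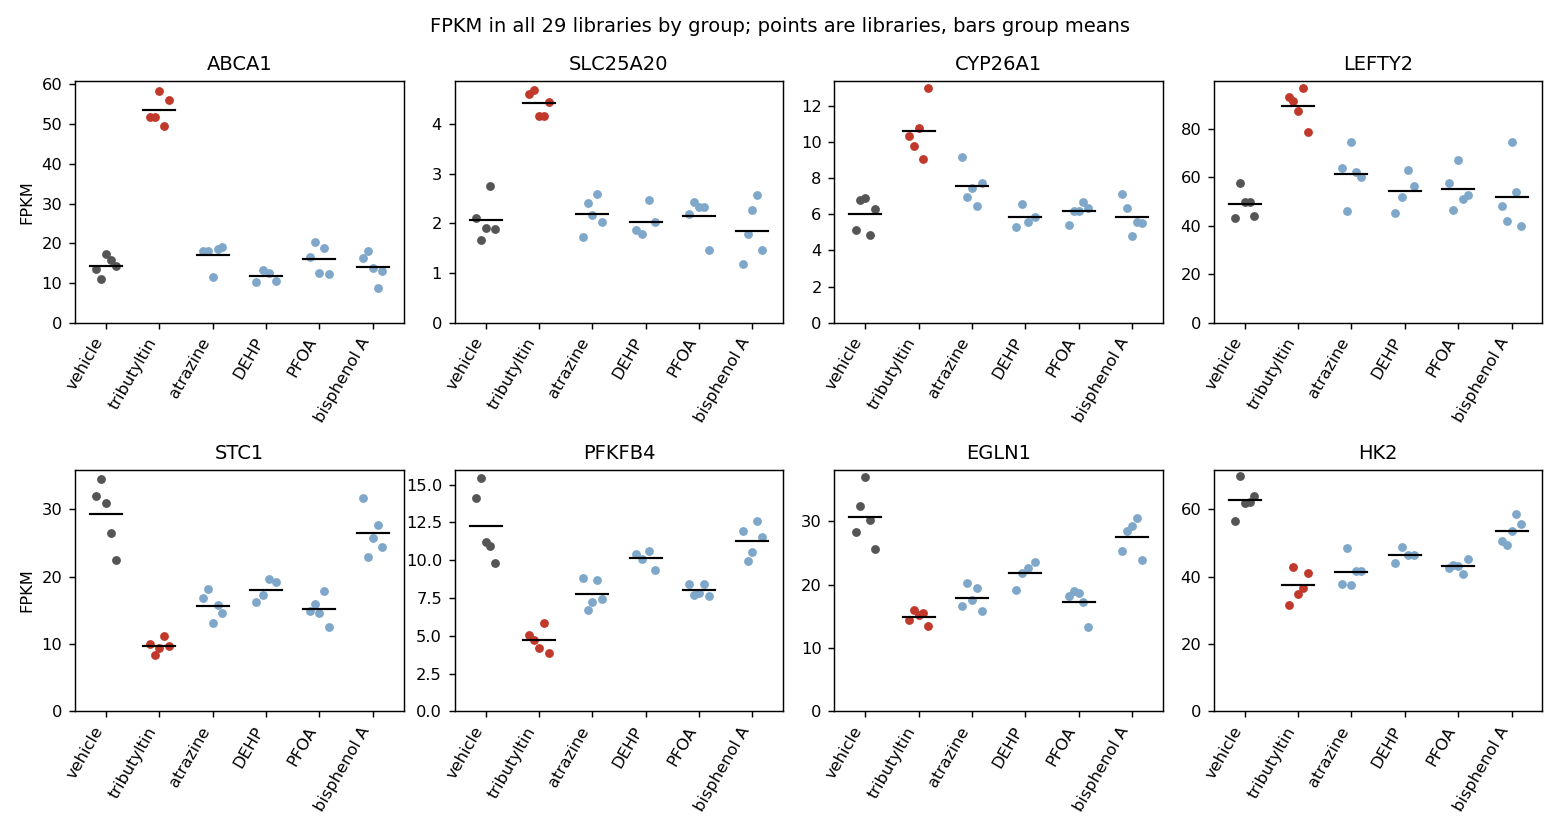
FPKM of 8 genes in all 29 libraries of the 6 groups, with a bar at each group mean and every vertical axis starting at 0. The group means of the 4 genes in the upper row are highest with tributyltin, while those of STC1, PFKFB4, EGLN1 and HK2 in the lower row are highest in vehicle, lowest with tributyltin and in between with the other 4 compounds.

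Some genes differed from the other compounds and not from vehicle. PCDH11X, a protocadherin, had 8.44 FPKM with tributyltin and 10.9 in vehicle, and differed from the other compounds by -0.61 (adjusted p = 0.000935), while its adjusted p against vehicle was 0.263. MT2A differed from the other compounds by -0.77 (adjusted p = 0.0473), with 101 FPKM with atrazine as the highest group mean.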

How the data were processed

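The authors deposited FPKM values for 29 libraries, under human gene symbols and human Entrez identifiers. Per the labels' protocols, 100 ng of RNA was amplified (Ribo-SPIA) and read as single ends of 50 nt. The submitters' processing notes list SAMtools, Cuffdiff 2.2.1 and TopHat2 2.1.1 and a mouse genome build, GRCm38.p5, with no role. Neither the rhesus build nor the handling of feeder reads is given in the sources used here.

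With 1 FPKM added, values were taken to log2, which understates differences of low genes. Genes averaging 1 FPKM or more over the 10 libraries were tested with limma 3.58.1 (R 4.3.3), two-sided and with a mean-variance trend, in 1 fit over all 29 libraries, which on simulated data recovered most changes but called more unchanged genes than its threshold allows; p-values were adjusted by Benjamini-Hochberg over all of them, with a threshold of 0.05. A count model would not suit FPKM. Relative depth rests on 583 genes of low FPKM, where 95.5% of 2024 values lay within 0.1 of a whole number of steps. The labels state no pairing, but the deviations of same-numbered tributyltin and vehicle libraries correlated above 0.1 in all 5 pairs (0.18 to 0.66), so the number served as the replicate block.

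Genes named are the 15 highest and 15 lowest calls, up to 4 calls per list (31 lists; 2 genes where none passed), up to 8 per direction against the other compounds and some fixed genes; others were named for their role or after their values were seen, and some genes are not reported here. Members and lists were chosen with earlier results of these data known. Alternatives changed the pseudocount, filter, scaling, libraries fitted, block, weights, variance trend and feeder adjustment, or dropped 1 library at a time.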

Additional observations from a re-analysis of the deposited data

Results flagged for a closer look

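Among 166 sets of 5 libraries of 1 named gene and 1 group, 13 held a library whose gap to its nearest neighbour, as a share of the group's range, exceeded 0.71; chance gives this in about 5% of sets, and 12 of the 13 are given here. Of called genes, NODAL was low in tributyltin library 5 (31.5 FPKM against 45.1 to 49.4 in the others, share 0.757), KDM3A was low in tributyltin library 1 (13.6 against 17.8 to 18.8 FPKM, share 0.807), SAP30 was high in tributyltin library 2 (10.4 against 7.74 to 8.39 FPKM, share 0.758), RIMKLA was low in vehicle library 5 (4.71 against 6.60 to 7.26 FPKM, share 0.741), ANKRD1 was high in vehicle library 2 (19.7 against 9.41 to 12.0 FPKM, share 0.743) and SPRY4 was high in vehicle library 4 (32.7 against 29.2 to 30.2 FPKM, share 0.732). Of genes that were not called, RXRB was low in tributyltin library 3 (share 0.923), RPL31 was high in library 1 of both groups (share 0.868 in vehicle and 0.784 with tributyltin), CENPF was high in vehicle library 3 (share 0.842), NCAM1 was high in vehicle library 1 (share 0.723) and JARID2 was low in vehicle library 5 (share 0.762).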

How the results depend on the processing

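The 138 calls against vehicle became 44 with the 10 libraries alone, 273 with the replicate block on those 10, 421 with the replicate block over all libraries and 252 with library weights. Leaving out 1 library gave 71 (without vehicle library 2) to 155 calls (without tributyltin library 3), with 83 without vehicle library 3 and 90 without tributyltin library 1. Without both libraries numbered 5, a setting chosen after seeing the data, there were 103 calls, and without the libraries numbered 1 and 5 of both groups there were 59, with 14 HIF and 4 glycolysis genes lower. The 214 calls against the other compounds became 133 with a mean of at least 5 FPKM, 529 with the replicate block over all libraries, 520 with the replicate block without vehicle and 449 with library weights. Leaving out 1 library gave 75 (without tributyltin library 5) to 255 calls (without tributyltin library 3), with 91 without tributyltin library 2, 106 without library 1 and 115 without library 4. Each alternative was followed for the 83 genes chosen by the naming rule, and not for the further genes named in the text. Of the 40 of these that were called against vehicle, 22 stayed past the threshold under every alternative in which they were tested, 12 were lost under 1 to 5 and 6 under more: ANKRD1, E2F1, PSEN2, SPRY4, RDH11 and FAM78B. Of the 43 chosen by the rule that were not called, 16 passed under some alternative, and 0 called values changed sign. The count of lower HIF genes ran from 11 (10 libraries alone) to 28 (block). The median gene's 95% interval was 0.229 wide on either side on the log2 scale, so smaller differences were often not detectable. Absolute depth is unknown.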

Other observations

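Some of the widest differences between the group means belonged to genes that did not pass. NNAT, a paternally expressed imprinted gene, stood at 96.9, 1.80, 176, 3.55 and 87.6 FPKM in vehicle and 186, 8.59, 59.8, 166 and 138 FPKM with tributyltin, so single libraries of either group differed by far more than the groups (log2 difference 1.40, adjusted p = 0.693). GSTK1, a mitochondrial glutathione transferase, likewise ranged from 0.0883 to 3.94 FPKM within the vehicle group and from 0.390 to 5.43 FPKM with tributyltin (adjusted p = 0.631). HIST2H4B, NME1-NME2 and NOMO3, which have near-identical copies or read-through partners, also ranged widely within a group, and reads may have been split between copies. TNFRSF6B, a decoy receptor for Fas ligand, was steadier: it had 4.04, 1.88, 2.31, 2.19 and 2.13 FPKM in vehicle and 7.43, 2.84, 3.83, 4.12 and 4.22 FPKM with tributyltin. It missed the threshold and passed with the replicate block (adjusted p = 0.294, and 0.0026 with the block).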
